A study of Mus musculus with 166 samples.

Results

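Mir532, Mir188, Mir362, Mir501 and Mir500 are 5 microRNA hairpins that lie in 1 intron of the chloride channel gene Clcn5 on the mouse X chromosome. They were found in the deposited count table by their transcript identifiers, which map to these symbols in GENCODE M21, and all 5 are among its 1626 features. All 5 also passed the filter on low counts that left 454 features for testing. The cluster was selected on earlier results of these data, in which Mir362 stood among the larger falls of Q175 cerebellum at 10 months, so that the values of that contrast are given here as a description, with no test. It is not recorded which value brought Mir501 into the choice, and its differences between ages are treated in the same way.

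Small RNA of the cerebellum was sequenced from mice on a C57BL/6 background, of both sexes and aged 2, 6 or 10 months, with 1 library per mouse. Wild-type (WT) mice carried 2 unaltered Htt alleles. Mice of the lines Q20, Q80, Q92, Q111, Q140 and Q175 carried 1 unaltered allele and 1 knock-in allele of Htt, the gene whose expanded CAG repeat causes Huntington's disease, with a nominal CAG length of 20, 80, 92, 111, 140 and 175. Line and age made 21 groups of 7 to 8 libraries. After 9 libraries of low connectivity had been left out, 157 libraries in groups of 6 to 8 were kept. Q20 and WT together served as controls. The WT mice were littermates of Q20 alone and the Q175 line arose from Q140, so that the length of the repeat and the origin of a line cannot be told apart. That each library came from another mouse is the study's account.

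MicroRNAs are cut from hairpins in 2 steps, by Drosha in the nucleus and by Dicer in the cytoplasm, and either arm of the hairpin can become the mature strand. The mature strand is loaded into an Argonaute protein and pairs with messenger RNAs mostly through its seed, bases 2 to 8, which leads to their repression. Hairpins that lie in an intron are commonly transcribed with their host gene. Clcn5 encodes an endosomal exchanger of chloride and protons that is best known from the kidney, where its loss causes Dent disease. The Mir500 to Mir532 group is conserved among placental mammals.

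In GRCm38, Clcn5 spans chromosome X, 7153810 to 7319358, on the minus strand. The 5 hairpins lie on the same strand within 10815 nt of one intron of 103648 nt (7213011 to 7316658), and none overlaps an exon of Clcn5. This is intron 3 of the transcripts ENSMUST00000115746 and ENSMUST00000132126 and intron 2 of ENSMUST00000128319. In the direction of transcription, Mir532 (ENSMUST00000093630, 7248402 to 7248497) comes first. Mir188 (ENSMUST00000083464, 7247989 to 7248056) follows after 345 nt. Mir362 (ENSMUST00000093592, 7241982 to 7242046) lies 5942 nt further on. Mir501 (ENSMUST00000102296, 7241243 to 7241351) follows after 630 nt, and Mir500 (ENSMUST00000093600, 7237683 to 7237774) after 3468 nt. Of the 1228 features of the count table with a GENCODE M21 entry, none besides the members lay inside Clcn5 or within 20000 nt of a member. The 398 features without an entry could not be placed.

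The mature strands are shown because their seeds tie the members to each other and to microRNAs elsewhere. Sequences are those of RefSeq for GRCm38.p6, 5′ to 3′, with the seed in capitals.
miR-532-3p: cCUCCCACacccaaggcuugca
miR-188-5p: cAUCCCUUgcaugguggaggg
miR-188-3p: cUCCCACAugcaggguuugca
miR-362-5p: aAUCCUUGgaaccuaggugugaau
miR-362-3p: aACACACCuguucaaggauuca
miR-501-5p: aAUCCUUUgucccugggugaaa
miR-501-3p: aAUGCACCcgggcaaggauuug
miR-500-5p: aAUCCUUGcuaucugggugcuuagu
miR-500-3p: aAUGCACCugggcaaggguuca
miR-532-5p was not printed. miR-362-5p and miR-500-5p carry the same seed, and miR-501-5p shares bases 2 to 7 with both. miR-500-3p and miR-501-3p also carry one seed and differ, counted from the 5′ end of miR-500-3p, by the 4 changes U9C, G18A, C21U and A22G. Outside the cluster, the seed of miR-362-3p is that of miR-329-3p, and the seed of miR-188-5p that of miR-7061-3p. The longest run of bases shared by 2 member hairpins was 14 nt, between Mir501 and Mir500. Among 1005 RefSeq hairpins, the members included, the longest run shared by a member with a hairpin outside the cluster was 12 nt. Counts were made per hairpin, so that the 2 arms cannot be told apart. All counts of the members were whole numbers.

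Total counts ranged from 3094702 to 6188934 per library, with a median of 4321047. Mir532 was the most abundant member, with 1159 to 3041 counts per library and 72.4% of all member counts, and ranked 112 among all features by its mean CPM (counts per 1000000 counts, scaled by TMM). Mir501 had 77 to 1108 counts, Mir500 70 to 204, Mir362 44 to 143 and Mir188 40 to 144. Divided by hairpin length, the order at 10 months was Mir532 (428 ± 37.1 CPM per 100 nt, SD, n = 53), Mir501 (40.5 ± 14.7), Mir500 (29.1 ± 3.84), Mir362 (26.7 ± 3.85) and Mir188 (25.4 ± 3.003). By this measure the last 3 neighbours lay within their spread of each other. Without the division Mir500 stood higher, at 26.81 ± 3.53 CPM, beside 17.35 ± 2.50 for Mir362 and 17.25 ± 2.04 for Mir188. At 2 months Mir501 stood well apart from them, at 177 ± 23.6 CPM per 100 nt (n = 48). The labelled tissue was checked by markers. Neuronal microRNAs summed to 56050 to 95160 CPM over 8 of them. Within this list Mir9-2 averaged 41970 CPM, Mir137 17.55 CPM and Mir124a-2 4.71 CPM. MicroRNAs listed for other cell types were also high. The choroid plexus Mir204 averaged 18340 CPM, the erythroid Mir486 19030 CPM, the endothelial Mir126a 5800 CPM and the oligodendrocyte Mir338 3354 CPM. Of 5 hindbrain microRNAs Mir10b averaged 1048 CPM and Mir10a 572 CPM, while Mir196a-1, Mir196a-2 and Mir196b averaged 0.068, 0.047 and 0.11 CPM. The 5 epithelial microRNAs summed to 1.22 to 113 CPM, the highest in a Q175 library at 6 months.

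**Figure D1:**
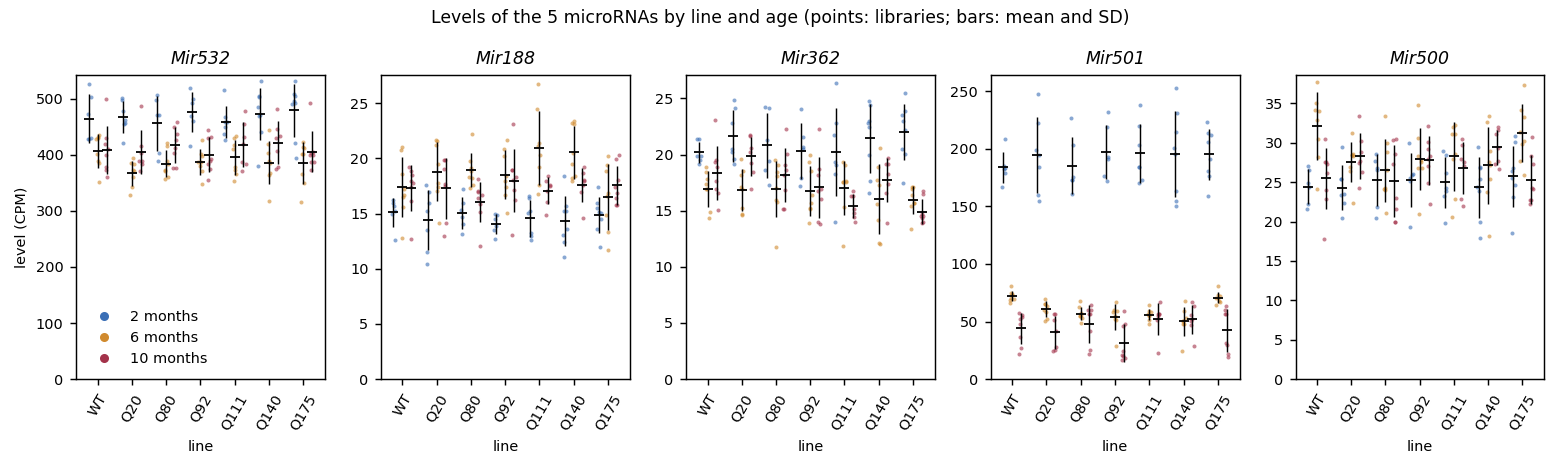
Level in CPM (vertical axis, from 0) of each of the 5 microRNAs by line (horizontal axis) and age (colour), with 1 point per library kept and the mean and SD of each group in black. Mir501 lay between 151 and 253 CPM at 2 months and at most at 81.2 CPM later, while the other members differed less between ages.

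Mir501, whose 3p seed is that of miR-500-3p, was the member that differed most between ages. In the control libraries it ranged from 155 to 247 CPM at 2 months (median 184, n = 13), from 50.4 to 81.2 CPM at 6 months (median 67.5, n = 16) and from 21.9 to 57.7 CPM at 10 months (median 47.5, n = 15). In each of the 7 lines every library of 2 months lay above every library of 6 and 10 months. The ratio of the mean at 2 months to that at 10 months ranged from 3.75 in Q140 to 6.23 in Q92. The log2 change was -1.81 ± 0.09 (SE) from 2 to 6 months, averaged over Q20 to Q140, and -2.19 ± 0.14 from 2 to 10 months in controls. By size these were the fifth and the sixth of 454 features. With the 10-month libraries of code L4, an undefined code in the library names, left out, the second was -1.98 ± 0.15.

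The other members moved by far less between ages, and not in one direction. From 2 to 6 months, in the lines Q20 to Q140, all 4 passed the test (edgeR quasi-likelihood, FDR under 0.05), as did 65.0% of all features. Mir188, which encodes miR-188-5p and miR-188-3p, rose by a log2 of 0.42 ± 0.04, or 34.1% (edgeR, FDR = 7.6e-16). In Q111 it ranged from 12.6 to 16.6 CPM at 2 months (median 15.1, n = 7) and from 16.8 to 26.8 CPM at 6 months (median 20.7, n = 8). The ages did not overlap in Q80, Q92 and Q111, and overlapped in the other lines. Mir500 rose by 0.14 ± 0.05 (edgeR, FDR = 0.0049), which left the ranges of both ages overlapping in every line. Mir362 fell by 0.33 ± 0.04 on the log2 scale (edgeR, FDR = 3.2e-11). In Q175 all 8 libraries of 2 months (17.5 to 25.5 CPM) lay above all 8 of 6 months (13.4 to 17.1 CPM). Mir532 fell by 0.29 ± 0.03 on the log2 scale (edgeR, FDR = 9.9e-19), from 468 ± 39.0 CPM over all lines at 2 months (SD, n = 48) to 387 ± 30.7 at 6 months (n = 56).

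Between 2 and 10 months in the controls, 2 of these 4 passed, against 48.2% of all features. Mir188 rose by 0.20 ± 0.07 (edgeR, FDR = 0.017) and Mir532 fell by 0.23 ± 0.04 on the log2 scale (edgeR, FDR = 3.7e-06). Mir362 was at -0.16 ± 0.07 (edgeR, FDR = 0.051) and Mir500 at 0.11 ± 0.07 (edgeR, FDR = 0.22). The call of Mir362 turned on the setting, with an FDR between 0.0050 and 0.40 over 6 alternatives and of 0.025 by DESeq2. Its 10-month controls are also those of the contrast it was selected on, so that nothing is read from this test for Mir362. From 6 to 10 months 2 of 4 passed, against 40.1% of all features. Mir188 fell by 0.20 ± 0.04 on the log2 scale (edgeR, FDR = 6.7e-05) and Mir532 rose by 0.09 ± 0.03 (edgeR, FDR = 0.0024), so that both turned back part of their earlier change. Mir501 was at -0.34 ± 0.09 over this interval. The 5 members summed to 722 ± 44.5 CPM at 2 months (SD, n = 48), 512 ± 36.6 at 6 months (n = 56) and 516 ± 42.0 at 10 months (n = 53), and the share of Mir501 in that sum went from 26.7% to 11.7% and 8.47%.

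**Figure D2:**
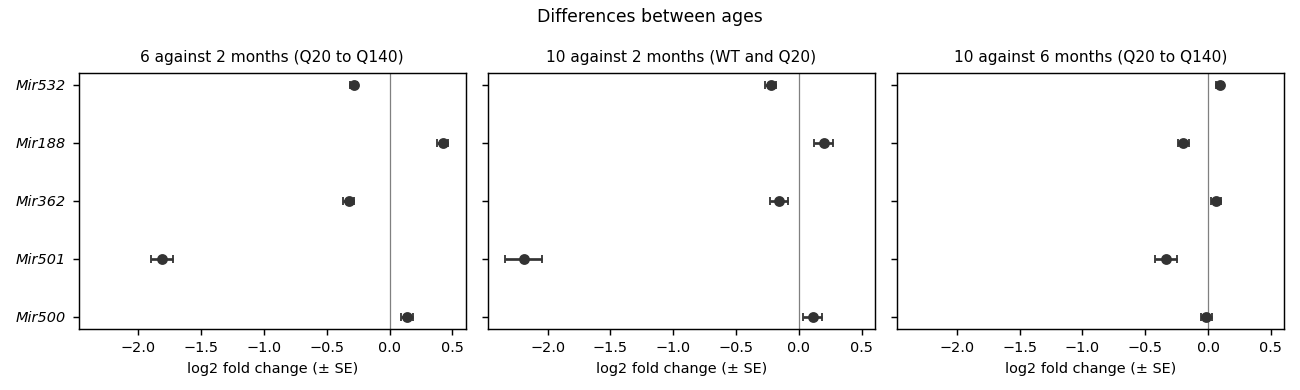
Log2 fold change between ages (horizontal axis) of the 5 microRNAs (vertical axis), with the standard error, in the 3 comparisons between ages. Mir501 lies at -1.81 and -2.19 in the comparisons with 2 months, and the other 4 lie between -0.33 and 0.42.

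The L codes of the library names differed between ages. Apart from WT and Q175 at 6 months, the codes of 10 months (L4, L5 and L6) occurred at no other age. Age and the processing of each age can thus not be told apart. Code L1 occurred at 2 and at 6 months, but the labels do not say that it marks a single batch. Under this code Mir501 ranged from 151 to 253 CPM at 2 months (n = 27) and from 48.2 to 67.5 CPM at 6 months (n = 19). Of all 454 features 141 rose and 154 fell from 2 to 6 months in Q20 to Q140. From 2 to 10 months in controls 109 rose and 110 fell. Of the 8 tested neuronal microRNAs 6 fell and 0 rose, both from 2 to 6 months and from 2 to 10 months. Their summed level had a median of 81540 CPM at 2 months, 63310 at 6 months and 65570 at 10 months. Over the same 2 to 10 months all 4 tested microRNAs of the epithelial Mir200 family, which were at low levels, and both tested hindbrain microRNAs, Mir10a and Mir10b, rose. Of 7 choroid plexus microRNAs 5 rose from 2 to 6 months and 1 from 2 to 10 months. The summed level of these 7 hardly differed, with a median of 17740 CPM at 2 months, 17650 at 6 months and 18200 at 10 months. From 2 to 10 months in controls both oligodendrocyte microRNAs (median 0.30), the endothelial Mir126a (0.31), 2 of 3 microglial and immune and 2 of 3 erythroid microRNAs also rose. The part of these in the age differences was not tested. In bulk tissue, fewer cells of a type and less RNA per cell cannot be told apart.

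At 10 months Mir501 varied widely within every line. It ranged from 16.6 CPM in a Q92 library to 67.2 CPM in a Q140 library, and in Q175 the 8 libraries lay at 19.3, 22.1, 30.0, 31.2, 56.5, 56.9, 59.9 and 63.6 CPM. Its mean was 30.4 ± 11.8 CPM (SD, n = 10) under code L4, 43.9 ± 16.2 (n = 30) under L5 and 55.6 ± 8.45 (n = 13) under L6. The lowest value of all came from L5. After the means of line, age and sex had been taken out, the SD of Mir501 over the 157 libraries was 0.36 on the log2 scale, where counting alone gives 0.09. For Mir362 the same values were 0.17 and 0.16, for Mir188 0.17 and 0.17, for Mir500 0.18 and 0.13 and for Mir532 0.11 and 0.03. The spread of Mir362 and Mir188 within groups was thus about that of counting, which leaves little in which co-variation could be seen at this depth.

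The microRNA whose within-group values were most like those of Mir501 was not a neighbour but Mir99b (chromosome 17, 17830188 to 17830257), followed by Mir125a of the same small cluster (17830812 to 17830879) and Mir100 (chromosome 9, 41531425 to 41531504). The mature strands of these are shown to compare their seeds with those of Mir501.
miR-99b-5p: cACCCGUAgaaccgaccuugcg
miR-100-5p: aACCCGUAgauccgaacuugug
miR-125a-5p: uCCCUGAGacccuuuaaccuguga
miR-99b-5p and miR-100-5p belong to one family with one seed, which none of the 9 mature strands shown for the Clcn5 cluster carries. Over 157 libraries Pearson's r with Mir501 was 0.91 for Mir99b (rho 0.87), 0.79 for Mir125a (rho 0.80) and 0.74 for Mir100 (rho 0.67), the 3 highest among the features outside the cluster and chosen as such. For Mir99b r was 0.86 at 2 months (n = 48), 0.80 at 6 months (n = 56) and 0.94 at 10 months (n = 53), and without the 2 libraries farthest from the median it was 0.84, 0.68 and 0.94. For Mir100 r at 6 months went from 0.55 to 0.14 without the 2 farthest, and so rests on them. All of these values come from the same libraries and share their depth and code.

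Mir99b, Mir125a and Mir100 were also higher at 2 months than later. From 2 to 6 months, in Q20 to Q140, their log2 changes were -1.38 ± 0.05, -1.01 ± 0.04 and -1.72 ± 0.04, beside -1.81 ± 0.09 for Mir501. From 2 to 10 months in controls they were -1.44 ± 0.08, -1.12 ± 0.06 and -1.67 ± 0.07. Over all lines Mir99b ranged from 23370 to 33510 CPM at 2 months (n = 48) and from 5896 to 12620 CPM at 10 months (n = 53). Mir99b, Mir125a and Mir100 are thus far more abundant than Mir501.

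**Figure D3:**
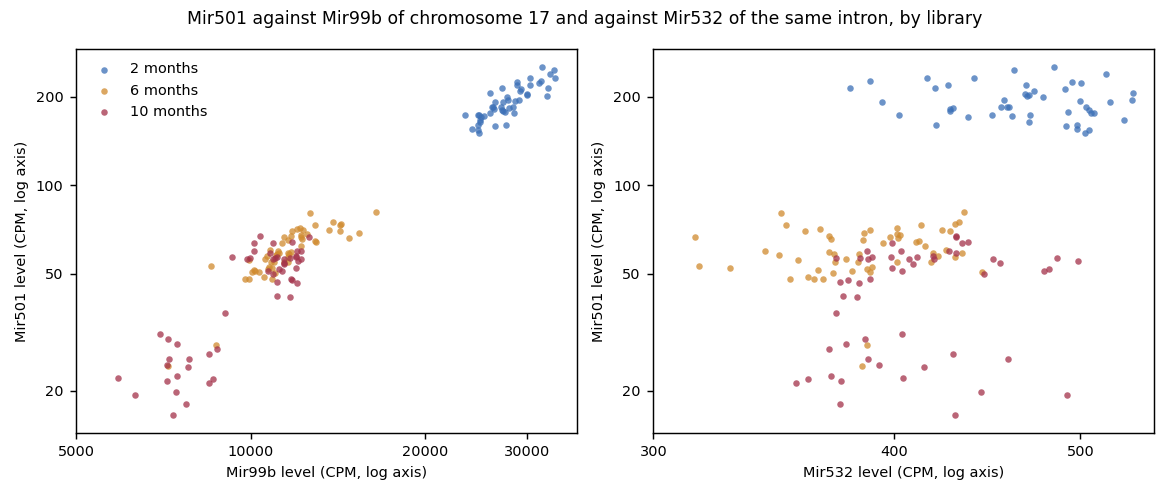
Mir501 level in CPM (vertical axis, log) against the level of Mir99b (left) and of Mir532 (right; both horizontal axes log), 1 point per library kept, coloured by age. The points show levels and so include the differences between ages. Each r, in contrast, is of log2 values with the means of line, age and sex taken out. For Mir501 and Mir99b this r was 0.86, 0.80 and 0.94 within the successive ages. For Mir501 and Mir532, from the same intron, it was 0.09 over the 157 libraries.

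Among the members the 10 pairs had r between -0.07 (Mir532 and Mir362) and 0.16 (Mir532 and Mir188), and over all 102831 pairs of tested features the middle 90% of r lay between -0.20 and 0.25. Mir362 and Mir188 varied by about as much as counting gives, which limits what their r can show at this depth. Mir500 varied by more than counting gives (SD 0.18 against 0.13), so that its r was limited less. It had an r of 0.10 with Mir532 and of 0.03 with Mir501. Mir532 and Mir501, which both varied by more than counting gives, had an r of 0.09. The cause of the low r among the members was not tested. Outside the cluster, the 3 features with the highest r were named for each member and chosen as such. For Mir532 they were Mir25 of the Mir106b to Mir25 cluster (r = 0.74), Mir140 (0.70) and Mir582 (0.65), with rho of 0.72, 0.68 and 0.68. Between the ages r ranged from 0.56 to 0.88 for Mir25, from 0.39 to 0.82 for Mir140 and from 0.60 to 0.74 for Mir582. For the scarcer members the highest r were lower. Mir188 was most like Mir497b (0.40), Mir138-2 (0.34) and Mir130a (0.33). For Mir362 they were Mir3071 (0.36), Mir153 (0.31) and Mir879 (0.29), and for Mir500 Mir496a (0.35), Mir128-1 (0.34) and Mir339 (0.34).

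The lower level of Mir362 in Q175 at 10 months, on which the cluster was selected, is described here library by library. The 8 Q175 libraries lay at 13.9, 13.98, 14.4, 14.5, 14.5, 14.7, 16.5 and 16.7 CPM. The 8 WT libraries ranged from 15.1 to 23.0 CPM (median 18.3) and the 7 Q20 libraries from 16.98 to 21.8 CPM (median 20.2). Of the 8 Q175 libraries 6 lay below all 15 controls, and the 2 others below the control median of 19.3 CPM. The log2 change was -0.37 ± 0.08, or 22.9% lower, and the slope over all lines -0.20 ± 0.04 per 100 CAG. Of all features 25.8% were called for Q175 at this age and 22.2% with CAG length, from which nothing is read for Mir362. No Q175 library carried code L4. Within L5, Q175 ranged from 13.98 to 16.5 CPM (n = 5) and the controls from 16.6 to 20.6 CPM (n = 7). Within L6 the ranges were 13.9 to 16.7 CPM (n = 3) for Q175 and 16.98 to 21.6 CPM (n = 3) for the controls. These are the libraries of the selection, so that the split by code gives no support. The part of the code was not tested. Both oligodendrocyte microRNAs, Mir219a-2 and Mir338, were lower in the same libraries, with a summed level of 3589 to 4381 CPM (median 3673) in Q175 and 3991 to 5528 CPM (median 4378) in controls. Of 7 choroid plexus microRNAs none passed, with a median of -0.75. Their summed level overlapped, at 16320 to 22240 CPM (median 17950) in Q175 and 15990 to 26100 CPM (median 19530) in controls. Of 8 neuronal microRNAs 2 were called higher (the highest at 0.85), as was 1 of 3 microglial and immune microRNAs (0.49). The part of these in the value of Mir362 was not tested.

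The other members had log2 changes near 0 in the same contrast. Mir188 was at 0.00 ± 0.08, Mir501 at -0.02 ± 0.24, Mir532 at -0.02 ± 0.05 and Mir500 at -0.10 ± 0.08, and all slopes with CAG length other than that of Mir362 lay between 0.00 and 0.07 in size. Mir362 and Mir501 are separated by 630 nt. The 95% interval for Mir501, however, ran from -29.0% to 37.7%, and its log2 change lay between -0.22 and 0.06 over 10 alternatives.

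**Figure D4:**
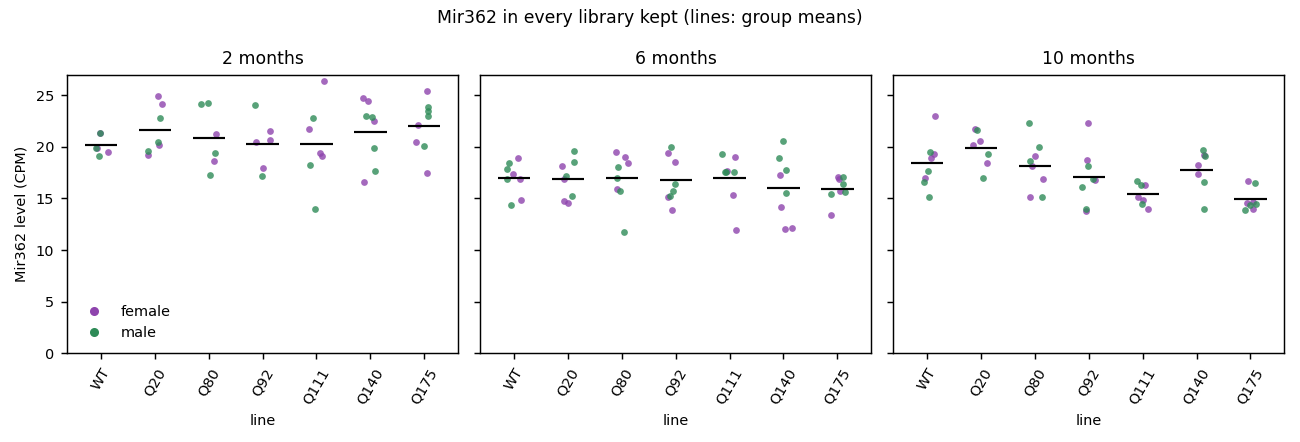
Level of Mir362 in CPM (vertical axis, from 0) in every library kept, by line (horizontal axis) and age (panels), coloured by sex, with the group mean as a line. At 10 months the Q175 libraries lay between 13.9 and 16.7 CPM and those of Q111 between 14.02 and 16.7 CPM, against 15.1 to 23.0 CPM in WT.

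At the other ages Mir362 in Q175 was not called. At 6 months the 8 Q175 libraries ranged from 13.4 to 17.1 CPM and the 8 WT libraries of the same library series from 14.4 to 18.9 CPM, with a log2 change of -0.10 ± 0.10 (edgeR, FDR = 0.63) and an interval from -17.9% to 6.73%. At 2 months Q175 (17.5 to 25.5 CPM, n = 8) and the controls (19.2 to 24.9 CPM, n = 13) overlapped, with 0.05 ± 0.09 (edgeR, FDR = 0.95) and an interval from -7.76% to 16.8%. The difference between the effects at 6 and at 2 months, each against WT, was -0.22 ± 0.14 for Mir362 (edgeR, FDR = 0.52). No member was called in this test by edgeR or DESeq2, against 4.18% of all features called by edgeR. An unadjusted p under 0.05 was found for none of the members and for 57 of all 454 features. The slopes of Mir362 with CAG length were 0.02 ± 0.05 per 100 CAG at 2 months and -0.05 ± 0.04 at 6 months.

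At 10 months Mir362 was also low in Q111, a line whose CAG length lies between those of Q92 and Q140. Its 7 libraries lay at 14.02, 14.4, 14.8, 15.2, 16.3, 16.4 and 16.7 CPM, of which 3 were below all 15 controls and all 7 below the control median. The log2 change was -0.31 ± 0.08 (edgeR, unadjusted p = 0.00031, FDR = 0.073), which did not pass. Over 10 alternatives its FDR ranged from 0.061 to 0.49. Within code L5 the 3 Q111 libraries reached at most 16.3 CPM and within L6 the 4 at most 16.7 CPM, below the controls of the same code. Q92 was at -0.16 ± 0.07 (edgeR, FDR = 0.97), Q140 at -0.11 ± 0.08 and Q80 at -0.06 ± 0.07. These lines share their controls with Q175, so that their values do not count as separate evidence, and the differences between the lines were not tested. In order of mean level, Q175 (14.9 ± 1.10 CPM) and Q111 (15.4 ± 1.05) lay within their spread of each other, as did Q92 (17.1 ± 2.74), Q140 (17.7 ± 2.00), Q80 (18.2 ± 2.43), WT (18.4 ± 2.41) and Q20 (19.9 ± 1.73) with their neighbours.

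In all, the 5 members were tested in 14 comparisons of a line with controls apart from Q175 at 10 months. Neither edgeR nor DESeq2 called any of these 70 values, and 4 had an unadjusted p under 0.05. Besides Mir362 in Q111 and Q92 at 10 months, they were Mir532 in Q111 at 6 months (0.12 ± 0.05) and Mir501 in Q140 at 6 months (-0.27 ± 0.11). In these 4 comparisons, in the order named, 27, 15, 33 and 38 of all 454 features had such a p. Over the 14 comparisons this number ranged from 13 (Q80 at 6 months) to 114 (Q175 at 6 months). Of all features 17.6% were called for Q175 at 6 months, 5.73% for Q140 at 10 months, 0.22% for Q175 at 2 months and 0.0% in the other 11 comparisons. No member was called with CAG length at 2 or 6 months by edgeR or DESeq2, against 0.22% and 16.1% of all features called by edgeR. No member had an unadjusted p under 0.05 there, against 30 and 115 of 454 features. The comparison of Q20 with WT called no member by either tool at 2 or 10 months, and 0.0% of all features by edgeR. No member had an unadjusted p under 0.05 there, against 6 and 28 of 454 features.

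Mir501 in Q140 at 6 months leaned on the library series. At 6 months only WT and Q175 belonged to a second library series, in which Mir501 was at 72.3 ± 4.59 and 70.8 ± 4.87 CPM (SD, n = 8 each). The other 5 lines were of the first series, with 60.7 ± 6.74 CPM in Q20 and 50.1 ± 12.3 CPM in Q140 (n = 8 each). The Q140 libraries ranged from 24.3 to 67.6 CPM and those of Q20 from 50.4 to 69.8 CPM, with overlap. With the series as a covariate the change was not called (edgeR, FDR = 0.50), and without it it was (-0.39 ± 0.10, edgeR, FDR = 0.0094). Mir501 in Q92 at 6 months was likewise called only without that term (-0.29 ± 0.10, edgeR, FDR = 0.047). Without the term 81 of 454 features were called for Q140 and 73 for Q92, against 0 for each with it. In the lowest Q140 library Mir99b, at 7187 CPM, and Mir100, at 1474 CPM, were also the lowest of their group.

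The members lie on the X chromosome, so that levels of females and males were compared over all lines of an age. No member was called at any age by edgeR or DESeq2, against 1.54%, 1.98% and 1.76% of all features at 2, 6 and 10 months. Of 15 values of the members 2 had an unadjusted p under 0.05, against 60, 59 and 35 of 454 features at these ages. Both were of Mir532. At 2 months it was at 480 ± 33.0 CPM in females (SD, n = 25) and 456 ± 41.7 CPM in males (n = 23), 6.28% higher with an interval from 1.25% to 11.57% (log2 0.09 ± 0.04, edgeR, FDR = 0.23). At 10 months it was at 421 ± 40.9 CPM (n = 27) and 399.9 ± 25.9 CPM (n = 26), 5.17% higher (0.07 ± 0.03, edgeR, FDR = 0.56). At 6 months the difference was 0.03 ± 0.03. Female and male ranges overlapped at each age. For the 4 other members the differences lay between -0.07 and 0.05, and the intervals of Mir188, for example, ran from -6.12% to 8.65% at 2 months.

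Of the 35 other tested features of chromosome X, 1 was called higher in females at 2 months, 0 at 6 months and 2 at 10 months, and none lower. These were Mir374b, at 0.19 ± 0.04 (edgeR, FDR = 0.0086) at 2 months and 0.28 ± 0.04 (edgeR, FDR = 8.8e-07) at 10 months, and Mir421, at 0.16 ± 0.03 at 10 months (edgeR, FDR = 9.6e-05). At 6 months they were at 0.12 ± 0.04 and 0.07 ± 0.02, not called. The median of the 35 was 0.01, 0.06 and 0.03 at 2, 6 and 10 months. The slope with CAG length was not called different between females and males for any member (15 values, by edgeR or DESeq2), against 0.22%, 0.0% and 0.22% of all features called by edgeR at 2, 6 and 10 months. None of the 15 had an unadjusted p under 0.05, against 11, 20 and 8 of 454 features. For Mir362 the slope of females minus that of males was -0.07 ± 0.09 per 100 CAG at 10 months.

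**Figure D5:**
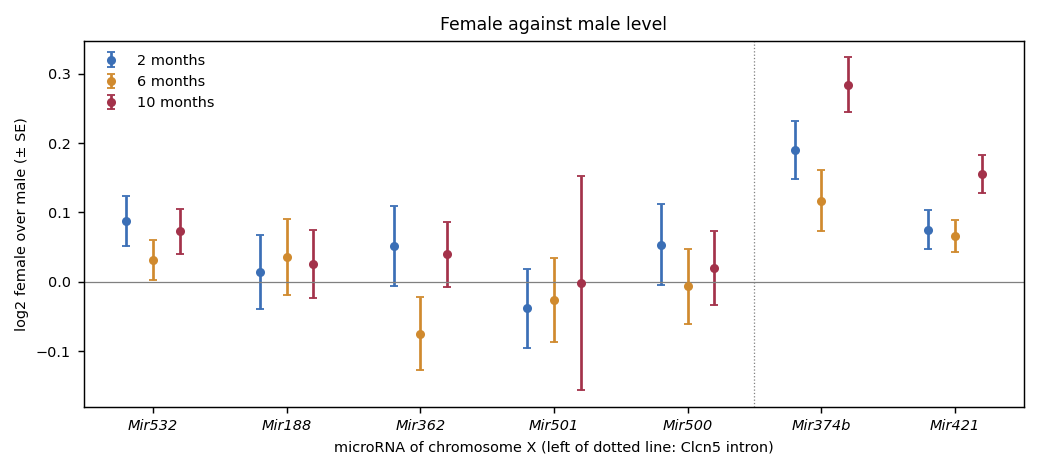
Log2 ratio of female to male level with its standard error (vertical axis) of the 5 microRNAs of the Clcn5 intron and of Mir374b and Mir421 of the same chromosome (horizontal axis), at 2, 6 and 10 months (colour). The members lay between -0.07 and 0.09, and Mir374b at 10 months at 0.28.

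The same 35 features of chromosome X give a measure for the ages and for Q175. From 2 to 6 months 8 of them rose and 17 fell, with a median of -0.12, and from 2 to 10 months in controls 6 rose and 10 fell, with a median of -0.01. The lowest of them was at -0.62 and -1.02, where Mir501 was at -1.81 and -2.19. From 6 to 10 months 14 rose and 2 fell (median 0.13). In Q175 at 6 months 2 rose and 3 fell, with a median of 0.03. Of all 454 features 141 rose and 154 fell from 2 to 6 months, and 109 rose and 110 fell from 2 to 10 months. From 6 to 10 months 95 of all features rose and 87 fell, and in Q175 at 6 months 48 rose and 32 fell.

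Of the microRNAs that share a seed with a member, Mir329 alone was tested. Its 3p strand lies on chromosome 12 (109713541 to 109713562, GRCm38.p6), in the imprinted Dlk1-Dio3 domain, and is shown beside that of miR-362-3p because they carry one seed.
miR-362-3p: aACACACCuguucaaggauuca
miR-329-3p: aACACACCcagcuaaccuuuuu
In Q175 Mir329 rose at 6 months by 0.23 ± 0.05 (edgeR, FDR = 0.00051), where Mir362 was at -0.10 ± 0.10. At 10 months its log2 change was 0.30 ± 0.04, beside -0.37 ± 0.08 for Mir362. From 2 to 6 months in Q20 to Q140 it was at -0.02 ± 0.02 (edgeR, FDR = 0.53), beside the fall of Mir362 by 0.33 on the log2 scale. The difference between Mir329 and Mir362 was not tested.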

How the data were processed

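Cerebellar small RNA was read as 36-nt single-end, strand-specific sequences (HiSeq 2000). Per the study's methods, the authors used STAR for the alignment (genome mm10) and HTSeq for counting. CASAVA 1.8.2 is named in the submitters' processing notes. The values the authors deposited and that are used here are estimated counts per hairpin from these reads, some of them fractional for other features by a step not given in the sources used here, and they were rounded to whole numbers. RPKM deposited by the authors entered 1 alternative, as log2(RPKM + 0.5).

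Libraries with a standardized connectivity under -5 within their age were left out (9). edgeR 4.0.16 (quasi-likelihood, TMM, filterByExpr, R 4.3.3) was fitted per age with sex and, at 6 months, library series, or over all ages with 1 mean per line and age. FDR are Benjamini-Hochberg values over 454 features, calls have FDR under 0.05, and tests are two-sided. Errors are SE for log2 values and SD for levels, and 95% intervals are 1.96 SE either side. WT was set to 7 CAG. DESeq2 1.42.0 and limma 3.58.1 served as alternatives, and the edgeR step was tested on simulated data. No library was a repeat deposit of another within its group (lowest chi-square per degree of freedom 14.7 over 514 pairs).

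The members and lists were chosen with earlier results of these data known. Named were the members, features within 20000 nt, the 3 most alike features per member, up to 5 microRNAs of chromosome X called between sexes, and tested microRNAs sharing a seed. Symbols come from GENCODE M21 (1228 of 1626 features). Leaving out the 10-month libraries of code L4 was chosen after seeing the data.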

Additional observations from a re-analysis of the deposited data

Results flagged for a closer look

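Within a line and age, a library stood apart from the others of its group for a member in 8 of 105 combinations of group and member examined, where chance gives about 1 in 20. Mir501 was low in Q92 F4 at 6 months (28.7 CPM, others 51.0 to 66.8), in Q140 M1 at 6 months (24.3 CPM, others 47.9 to 67.6) and in Q111 M3 at 10 months (22.6 CPM, others 50.9 to 66.8). Mir99b and Mir100 were the lowest of their groups in the same 3 libraries, with 8722, 7187 and 7471 CPM for Mir99b. Mir532 was high in F1 of Q20 (486 CPM, others 370 to 415) and in F1 of Q175 (492 CPM, others 373 to 404) at 10 months. Mir188 was low in WT M3 at 2 months (12.6 CPM, others 14.97 to 16.3) and in WT M1 at 10 months (12.7 CPM, others 16.2 to 19.2). Mir362 was low in Q175 F4 at 6 months (13.4 CPM, others 15.4 to 17.1).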

How the results depend on the processing

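Of 491 values under alternatives, 225 counts of called members and 257 single values kept their call and size, 2 counts and 2 single values moved, 5 single values passed the threshold newly and none was reversed. Without the term for library series, 1.0 member was called for Q92 and 1.0 for Q140 at 6 months, in both Mir501, where 73 and 81 of 454 features were called against 0 with the term. Mir362 between 2 and 10 months in controls passed with RLE (-0.18), DESeq2 (-0.18) and all libraries kept (-0.21), and Mir500 with RPKM (0.20). The 10-month controls also served in the selection of Mir362, so that nothing is read from its passes. Without the L4 libraries, a choice made after seeing the data, Mir501 in that comparison moved to -1.98, and with the L code the slope of Mir532 at 10 months was -0.03. The cause was not tested. Over all features Q140 at 10 months had 26 calls, and 1 without L4, 3 against WT alone, 7 with the replicate block, 11 without the filter, 15 against Q20 alone and 17 with all libraries kept.

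Replicate numbers did not pair the samples (mean r 0.0086 over 429 pairs of one sex, number and age, of which 132 were over 0.1). With the replicate block, Mir362 was at -0.30 in Q111 (FDR = 0.16, edgeR) and at -0.35 in Q175 at 10 months, and no call of a member changed. With the L code the difference of Q175 against WT between 6 and 2 months had 13 calls over all features against 19, with no member among them. For the 3 differences between ages themselves it was not run, because the codes differ between ages. Not run either were Q20 alone for Q175 and WT alone for Q80 to Q140 at 6 months, which belong to different series. Counts of 40 to 144 limit Mir188 and Mir362, whose spread was near that of counting.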
